A study of Mus musculus with 2 samples.

Results

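Of the 65952 rows of an expression array of mouse corneal epithelium, 33206 had no gene symbol in the platform's annotation, and 639 of those unnamed rows were at least 2-fold dimmer in epithelium that was closing a wound than in intact epithelium. The rows were chosen by their measured values: at least 1 of a row's log2 intensities had to reach 5.44, the median over both columns, called the low-signal level here, and injured minus uninjured had to be -1 or less on the log2 scale. The differences between the arrays are therefore given as a description. A row without a symbol is unnamed here, which does not make it a row without a gene. The row identifiers are used as they stand in the table: TC0500003330, for example, carries the code of chromosome 5 and the number 3330 within it.

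The study wounded the cornea of C57BL/6 mice of both sexes, aged 8 weeks, under ketamine and xylazine anaesthesia. A rust ring remover of 0.5 mm was used to strip all layers of the epithelium out to the limbus. Near 48 hours, with 10% of the wound still open, the whole epithelium was taken from injured eyes (group injured, 1 array) and from the unwounded fellow eyes (group uninjured, 1 array). Both groups therefore come from anaesthetised animals with a wound in 1 eye, and how many mice each array stands for is not stated. Because each group has a single array, nothing could be tested, and each difference below is without a replicate check. The RNA is from a mixed tissue, so fewer cells of a type and less RNA per cell cannot be told apart. The tissue label was borne out by its markers in the uninjured array: the corneal keratin Krt12 was at a log2 intensity of 14.07 and the basal keratin Krt5 at 13.85. The injured array had 10.85 for Krt12 and 13.69 for Krt5. Markers of other cells were also measured. Of 10 conjunctival markers all 10 were above the low-signal level, 1 of them 2-fold lower and 2 of them 2-fold higher. Krt4 was at 11.85 uninjured and 11.98 injured, Krt13 at 12.06 and 11.77, Krt7 at 9.22 and 10.56, and Krt19 at 10.58 and 11.68. The lower one was the goblet cell marker Muc5ac, at 7.07 and 5.81. Of 9 stromal markers with a row 7 were above it, including the collagen gene Col1a1 at 7.29 and 7.18, while Kera and Lum were below it in both arrays. Of the 7, 1 was 2-fold lower, Dcn at 6.09 and 4.77, and 0 were 2-fold higher. Of 14 leukocyte markers 9 were above it, including Itgam at 10.26 and 8.72, Cd68 at 8.92 and 9.12 and S100a9 at 5.77 and 7.67, while Ptprc was below it in both arrays. The part of other cells in the differences below was not tested. In 6 lists of such markers no gene was the nearest named row of any of the 639 rows, but only 11 measured unnamed rows lay within 5 numbers of these genes, too few to read anything from that count.

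Arrays of the whole transcriptome carry probes for RNA that no gene catalogue names: long non-coding RNAs, alternative exons and ends of known genes, RNA from introns, and precursors of microRNAs. Introns of long genes are transcribed with the rest of the gene and are spliced out and degraded, and some of them hold microRNA genes that are released from the host transcript. An unnamed row close to a named gene can therefore read a separate RNA or a piece of the neighbouring gene's transcript, and a signal intensity alone does not separate these. The corneal epithelium is a stratified sheet renewed from the limbus, and the transcription factor Pax6 and miR-204 are known for their roles in the eye.

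The table gives no sequence or position for the unnamed rows themselves. The sequences that can be shown are those of named RNAs beside them, from RefSeq for GRCm38.p6, and the sources used here do not give the array's own genome build. The mature microRNAs below belong to Mir204, which has the lowest unnamed row of the table beside it, to Mir6353, which stood between 2 pairs of lower unnamed rows, and to Mir15a, which was the nearest named row of another lower unnamed row and whose 5′ arm shares the seed of miR-6353. Capitals mark the seed, bases 2 to 8 from the 5′ end.
mmu-miR-204-5p, chr19:22750610-22750631, + strand: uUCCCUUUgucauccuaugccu
mmu-miR-204-3p, chr19:22750649-22750669, + strand: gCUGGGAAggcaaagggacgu
mmu-miR-6353, chr1:84218926-84218948, - strand: uAGCAGCAcguauuuauccuauu
mmu-miR-15a-5p, chr14:61632075-61632096, - strand: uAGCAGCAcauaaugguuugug
The seed AGCAGCA was the only one that 2 of the mature microRNAs beside lower unnamed rows had in common, and 10 mature microRNAs of the table carry it. The seed of miR-204-5p is carried by 3.

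The next pair of sequences are promoters, 250 bases before to 50 bases after the annotated start, of 2 genes whose rows directly precede long runs of lower unnamed rows. They are shown because these runs and the named row before them were all lower. Capitals mark the letters GGGCGG or their reverse complement.
Alcam promoter, chr16:52453032-52453331, - strand: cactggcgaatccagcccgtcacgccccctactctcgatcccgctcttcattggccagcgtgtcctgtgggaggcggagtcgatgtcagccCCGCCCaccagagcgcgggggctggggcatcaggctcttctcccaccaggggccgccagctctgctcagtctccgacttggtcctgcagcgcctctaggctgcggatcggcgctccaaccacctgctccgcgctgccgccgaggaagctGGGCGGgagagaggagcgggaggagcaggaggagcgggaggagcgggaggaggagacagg
9530091C08Rik promoter, chr9:68765096-68765395, + strand: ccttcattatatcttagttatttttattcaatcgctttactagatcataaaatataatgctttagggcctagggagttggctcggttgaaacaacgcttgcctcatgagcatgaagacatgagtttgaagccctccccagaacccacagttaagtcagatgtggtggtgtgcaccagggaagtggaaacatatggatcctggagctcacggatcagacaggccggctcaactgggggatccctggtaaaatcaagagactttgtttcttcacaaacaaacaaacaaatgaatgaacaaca
Alcam encodes a cell adhesion molecule of the immunoglobulin family, and 9530091C08Rik is a gene without an assigned function. The letters GGGCGG on either strand were found in the Alcam window and in 35.7% of the 32851 promoters of the table, and not in the window of 9530091C08Rik. The other motifs searched on both strands were CACGTG, in 7.15% of all promoters, TGANTCA, in 7.81%, and TATAAA, in 13.6%, and neither window held them. A match is a string of letters and no evidence of binding.

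Among the 14035 unnamed rows at or above the low-signal level, the 639 lower rows made up 4.55%. The rows higher by the same measure numbered 357, or 2.54%. Rows with 1 gene were divided more evenly, with 774 of 19798 (3.91%) lower and 814 (4.11%) higher. Of the unnamed rows past 2-fold, 64.2% were lower, and of the named rows past 2-fold, 48.7%.

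In the uninjured array the 639 rows lay between 5.45 and 11.37 with a median of 7.10, and in the injured array between 3.29 and 10.12 with a median of 5.33. The named rows that were lower had an uninjured median of 8.86. The differences of the 639 ran from -5.73 up to the threshold, with a median of -1.44, which is 2.71-fold. Of the 639, 153 were lower by 2 or more on the log2 scale, 46 by 3 or more and 13 by 4 or more. In 335 rows (52.4%) the injured value was below the low-signal level, where the size of a difference is uncertain. As the only measure of spread here, rows that name the same gene disagreed with an SD of 0.244 in the log2 difference (542 rows of 256 genes). That SD was taken within the same 2 arrays and leaves out variation between animals, dissections and arrays. Of the 639, 112 lay within 0.1 of the fold threshold.

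**Figure D1:**
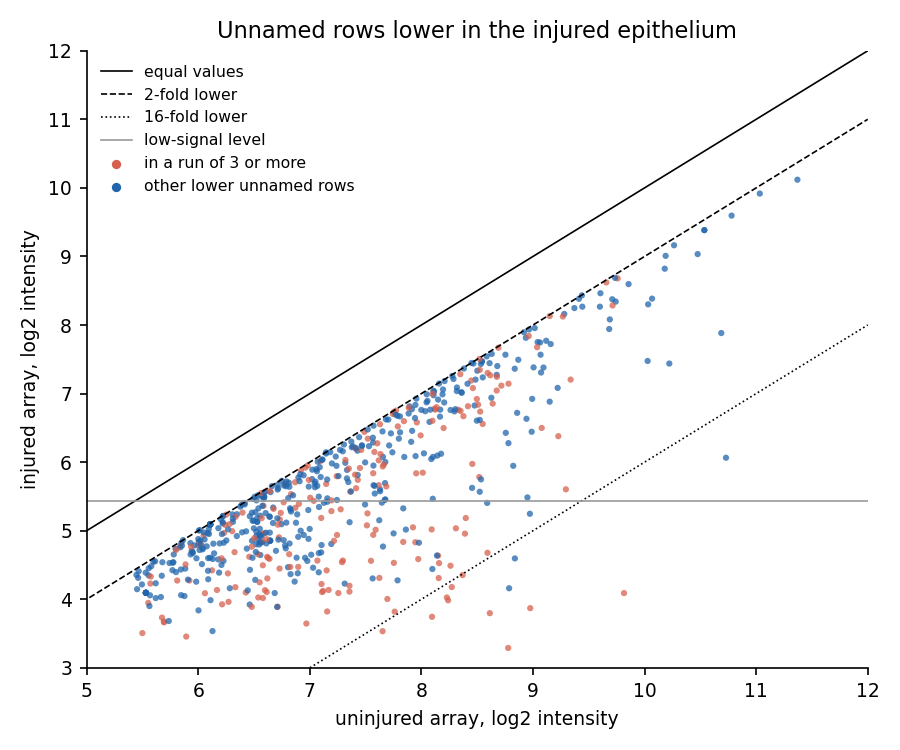
Log2 intensity in the uninjured array (x axis) against the injured array (y axis) for the 639 lower unnamed rows, 1 point per row; red points are in runs of 3 or more rows with adjacent numbers, and the lines mark equal values, a 2-fold and a 16-fold difference and the low-signal level of 5.44. By the rule every point lies on or under the 2-fold line, and 335 points lie under the low-signal level in the injured array.

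At the fold threshold, the rows just inside were TC0300002217 (5.86 uninjured, 4.86 injured), TC0200003658 (7.14 and 6.14) and TC0600002570 (8.45 and 7.45), each a little past -1. The rows just outside were TC0700003421 (9.02 and 8.02), TC0300001970 (7.94 and 6.94) and TC1100002793 (6.59 and 5.59), each a little short of it. At the brightness threshold, TC1900000494 (5.45 and 4.36), TC0300001438 (5.45 and 4.15) and TC1500001589 (5.46 and 4.31) were just inside. TC1000002825 (5.43 and 4.32), TC0700003518 (5.42 and 4.30) and TC1400002581 (5.40 and 4.07) were just outside, among 52 unnamed rows that were 2-fold lower but too dim. The rows on either side of a threshold are thus alike, and the thresholds are conventions.

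The numbers in the row identifiers could be read as an order along the chromosome. Of successive named rows whose strand RefSeq gives, 98.8% were on 1 strand, and 99.7% of such pairs ascended in position. In each of the 19 codes compared the numbering began on the plus strand and ended on the minus strand. A difference in number is a rank and not a distance in bases, and a preceding row is one with a lower start position on either strand.

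Lower unnamed rows stood together. Of the 639, 314 (49.1%) were in 100 runs of adjacent numbers, and the other 325 stood alone. There were 46 runs of 3 or more rows and 14 of 5 or more, the longest with 20 rows. Where a lower row was followed by an adjacent unnamed row above the low-signal level, that row was lower too in 62.4% of 343 cases, against 7.14% of 4482 such pairs over all measured unnamed rows. In none of the 343 was the next row 2-fold higher. Of the 357 higher unnamed rows, 27.7% were in runs, and their longest run had 9 rows. An adjacent measured unnamed row after a higher one was higher too in 42.9% of cases. Fewer rows can form fewer runs, so the shares in runs are not on an equal footing, and the difference was not tested.

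The named row before them tended to be lower as well. The preceding named row was lower by 1 or more for 331 of 633 rows (52.3%), against 5.16% over all measured unnamed rows. A named row counts once for each unnamed row behind it. The 633 rows shared 362 different preceding named rows, of which 160 were lower, against 325 of 8258 over all measured unnamed rows. The following named row was lower for 69 of 635 (10.9%), against 2.99%. The 2 sides are not alike in brightness. The following named row was below the low-signal level in both arrays for 227 rows, and the preceding one for 89. A 2-fold lower value is hard to see there. The nearest named row on either side was lower for 268 of 637 (42.1%), against 4.45%, and lay 1 number away for 305 rows. These are the same contrast as the one that chose the rows, so the shares describe how the rows lie and test nothing. With each pair of identical values counted once, 53.3% had a lower preceding row. The share was 67.8% for rows in runs, which had 91 different preceding named rows, and 37.0% for rows outside them, which had 287. For 152 rows between named genes of the plus strand it was 55.3%, and for 127 on the minus strand 46.5%, while the following row was lower for 6.58% and 18.1%. Shares by strand over all measured unnamed rows were not computed, so no strand difference can be read from these.

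Seen from the named side, 774 named rows were lower, and 321 of these had at least 1 measured unnamed row before the next named row. In 158 of the 321 (49.2%) at least 1 of those unnamed rows was lower, and in 81 all of them were. After lower named rows 328 of 711 unnamed rows (46.1%) were lower, after named rows less than 2-fold apart 211 of 9741 (2.17%), and after higher named rows 5 of 414 (1.21%). For the 331 lower unnamed rows whose preceding named row was lower, the median difference was -1.65 and that of the named row -1.49. In 197 of the 331 the unnamed row had the larger difference of the pair. The 331 were chosen for being at -1 or less, so these values do not show that unnamed rows differ more than named ones. All 711 measured unnamed rows after a lower named row had a median difference of -0.86. Over 13984 measured unnamed rows, the difference and that of the preceding named row had a Pearson r of 0.456 and a Spearman rho of 0.365, and with the following named row an r of 0.0883. The points share 2 arrays and only 8258 different preceding rows, so these coefficients are descriptions.

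**Figure D2:**
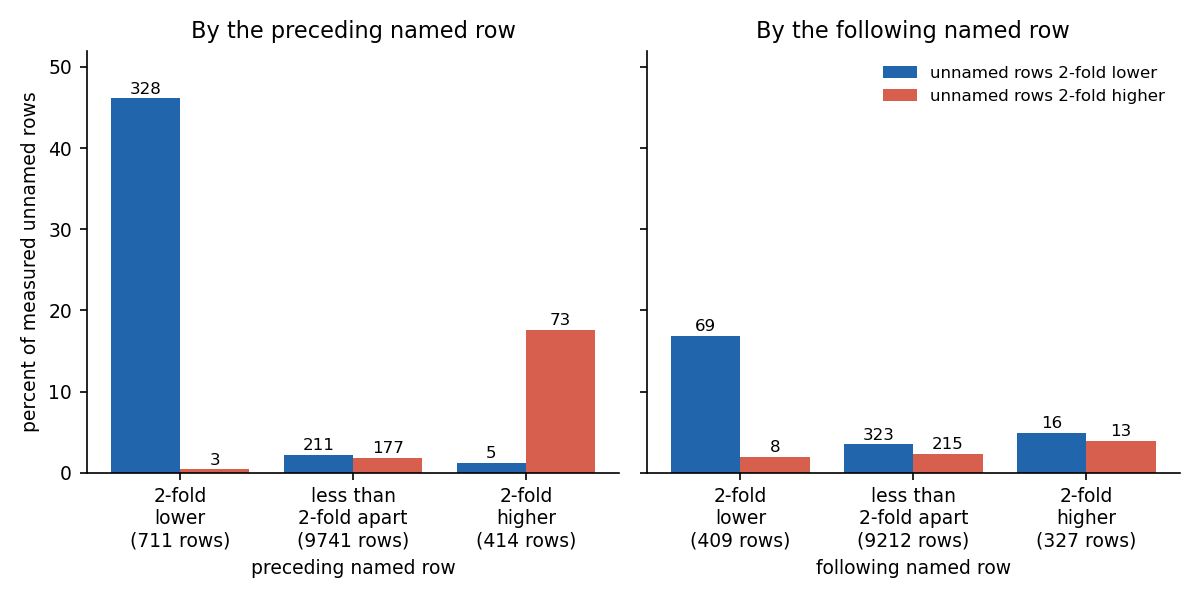
Percent of measured unnamed rows that were 2-fold lower (blue) or 2-fold higher (red) in the injured array, y axis, by the state of the preceding (left) or following (right) measured named row, x axis; numbers over bars are counts of rows and those in brackets the rows in each class. The bar after a lower preceding row stands at 46.1%, and that before a lower following row at 16.9%.

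The longest run lay behind Auts2, a gene of transcriptional regulation in neurons. Auts2 itself was at 8.45 uninjured and 7.20 injured, a difference of -1.24. The 20 unnamed rows after it, TC0500003330 to TC0500003349, lay between 5.69 and 8.59 in the uninjured array and between 3.53 and 7.19 in the injured array. Every one of the 20 was lower, by -1.26 to -4.12 with a median of -2.21, and 16 of them were below the low-signal level when injured. The 10 rows nearest in number to Auts2 had a median difference of -1.99 and the other 10 one of -3.07. The lowest of the run, TC0500003344, went from 7.65 uninjured to 3.53 injured. The 12 rows after the run were below the low-signal level in both arrays, TC0500003362 was higher (7.45 uninjured, 8.62 injured), and the next named row, Gm15627, was at 5.67 and 5.94.

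A run of 11 lay on chromosome code 16, TC1600000606 to TC1600000616, with a median difference of -3.32. Its last 2 rows were among the 3 lowest of all 639: TC1600000615 was at 8.98 uninjured and 3.87 injured, and TC1600000616 at 8.78 and 3.29, the dimmest injured value of the set. All 11 injured values, 3.29 to 4.53, were below the low-signal level, while the uninjured values ran from 5.50, just above that level, to 8.98. The nearest rows with 1 gene were Gm22543, 24 numbers before it, and Gm25873, 8 numbers after it, and neither was lower (-0.05 and 0.10). Between the run and Gm25873, at 2 numbers from the run, stood a row shared by Mir568 and Zbtb20, at 7.26 uninjured and 6.40 injured, a difference of -0.85. Zbtb20 encodes a zinc finger repressor of transcription. With neither Gm22543 nor Gm25873 lower, this run added nothing to the counts of lower neighbours above. The row of several genes was not counted as named, and at -0.85 it was short of the threshold as well.

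Rora, which encodes a nuclear receptor of the circadian clock, was at 8.42 uninjured and 6.16 injured. It was followed by TC0900000893 (6.86 and 4.26) and TC0900000894 (a difference of -1.92), then by 9530091C08Rik (7.61 and 5.69), then by a run of 8. In that run the uninjured values were 6.12 to 7.92 and the injured values 3.89 to 5.08, with a median difference of -2.23. Further rows before Ice2 were also lower, so that 14 lower unnamed rows lay between Rora and Ice2, the brightest being TC0900000914 at 8.97 uninjured and 5.25 injured. Of the other 9 unnamed rows in that interval, 8 were below the low-signal level and TC0900000916 was at 6.16 and 5.20. The series of lower rows ended there: Ice2, a subunit of a complex that transcribes small nuclear RNA genes, was at 6.66 and 6.81.

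The lowest row of all, TC1900000368, was at 9.82 uninjured and 4.09 injured, a difference of -5.73 or 52.9-fold. It stood 2 numbers after Mir204, which lies in an intron of the cation channel gene Trpm3. Mir204 was at 7.65 and 4.51 (-3.14), and Trpm3 at 10.22 and 4.71 (-5.51). The row before Mir204, TC1900000365, was at 8.79 and 4.16. The 5 rows between Mir204 and 2410080I02Rik, the run that holds the lowest row, were between 7.36 and 9.82 uninjured and between 3.74 and 4.96 injured. All 6 unnamed rows around Mir204 thus had log2 differences of -3.16 or below, and 4 of them were among the 7 lowest of the set. TC1900000357, the row directly after Trpm3, was at 8.85 and 8.57 and was not lower, and the 7 rows between it and TC1900000365 were below the low-signal level. The next named row, 2410080I02Rik, was at 7.76 and 7.94.

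**Figure D3:**
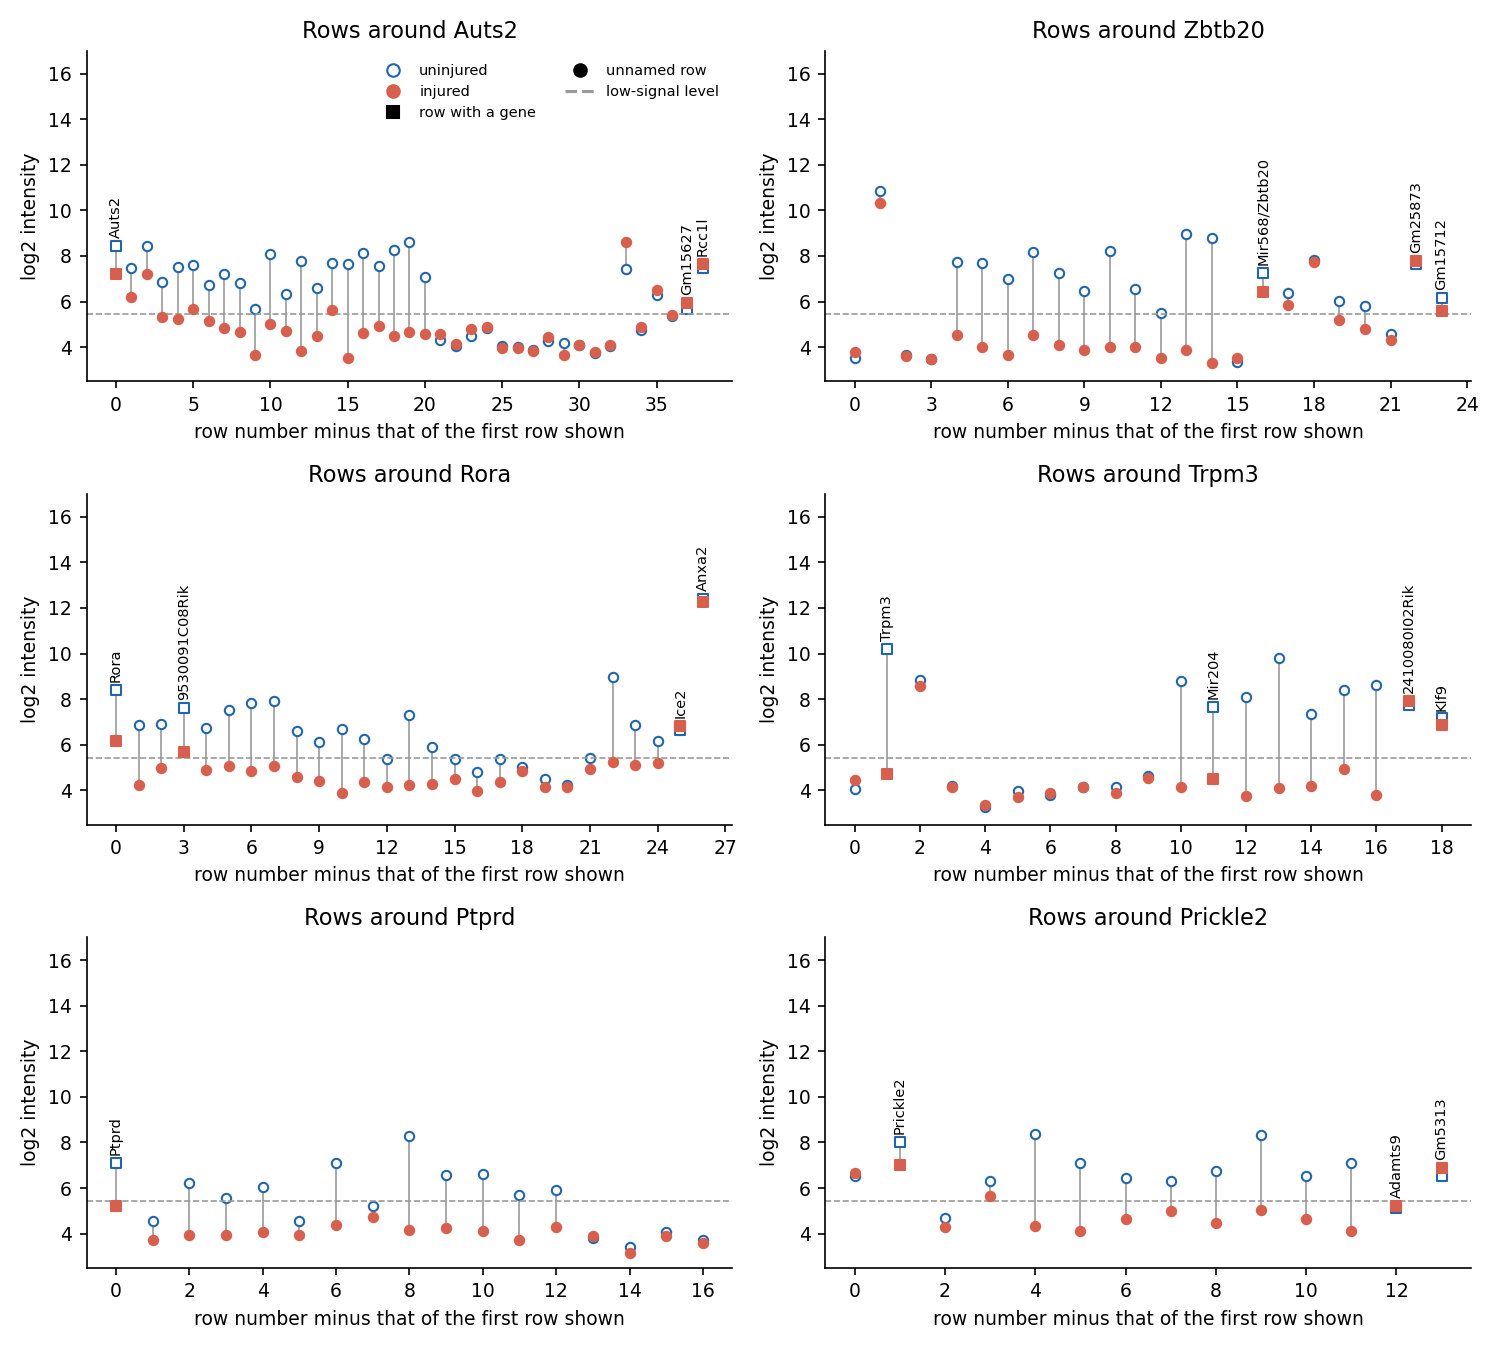
Log2 intensity (y axis) of successive rows in the uninjured (open blue) and injured (red) array at 6 places, by row number counted from the first row shown (x axis); squares are rows with a gene, circles unnamed rows, grey lines join the values of a row and the dashed line is the low-signal level. The 20 rows after Auts2, the 11 before the row of Mir568 and Zbtb20 and the 6 around Mir204 are lower together, and the named rows at the right of the panels, of which the one of Ptprd shows none, differ by less than 2-fold.

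Prickle2, a component of planar cell polarity, was at 8.03 uninjured and 7.01 injured. The 8 rows TC0600002748 to TC0600002755 after it were at 6.30 to 8.37 uninjured and 4.11 to 5.03 injured, with a median difference of -2.64, and the largest was -4.02. This run was further from equality than the named gene before it, and Adamts9, which directly follows it, was below the low-signal level at 5.14 and 5.20. Tenm2, a teneurin of cell adhesion, was at 7.10 and 6.52, short of the threshold at -0.58. The 7 rows TC1100002521 to TC1100002527 behind it had differences of -1.13 to -1.63, with uninjured values of 6.21 to 8.14 and injured values of 4.60 to 6.80.

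Several further stretches of unnamed rows, picked after their values were seen, had the same form. Ptprd, a receptor tyrosine phosphatase, was at 7.11 uninjured and 5.20 injured, and 9 of the 12 measured unnamed rows before the next named row were lower. After Tox, a high mobility group protein (7.76 and 5.95), 8 of 10 were lower, with a lowest difference of -3.85. After Nav3, a protein of microtubule ends (7.01 and 5.94), 7 of 8 were. Alcam was at 10.98 and 9.76, and all 7 measured unnamed rows after it were lower, at 7.89 to 9.66 uninjured and 6.67 to 8.62 injured. Unlike the rows behind Auts2 and Mir204, those behind Alcam were all still above the low-signal level in the injured array. After Magi3, a junctional scaffold protein (9.40 and 8.21), 7 of 9 were lower, and after Ghr, the growth hormone receptor (8.72 and 7.19), 5 of 5. Frmd4a (7.22 and 5.63) was followed by 5 lower rows of 6 with a lowest difference of -4.25, and Slco3a1, an organic anion transporter (9.50 and 6.67), by 4 of 4. Rapgef5 (9.12 and 8.15) was itself just short of the threshold at -0.97, and all 7 measured unnamed rows after it were lower.

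Over the table, 362 stretches between successive named rows held at least 1 lower unnamed row, and 57 held 3 or more. These 57 held 273 of the 639 rows (42.7%), and in 32 of the 57 the named row that opened the stretch was lower. Among the 22 stretches with 5 or more lower rows, the opening named row was lower in 16 and the closing one in 2. Over all measured unnamed rows, 325 of 8258 different preceding named rows were lower. That background is not matched for the number of unnamed rows in a stretch. All measured unnamed rows were lower in 10 of the 592 stretches that had 4 or more of them.

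**Figure D4:**
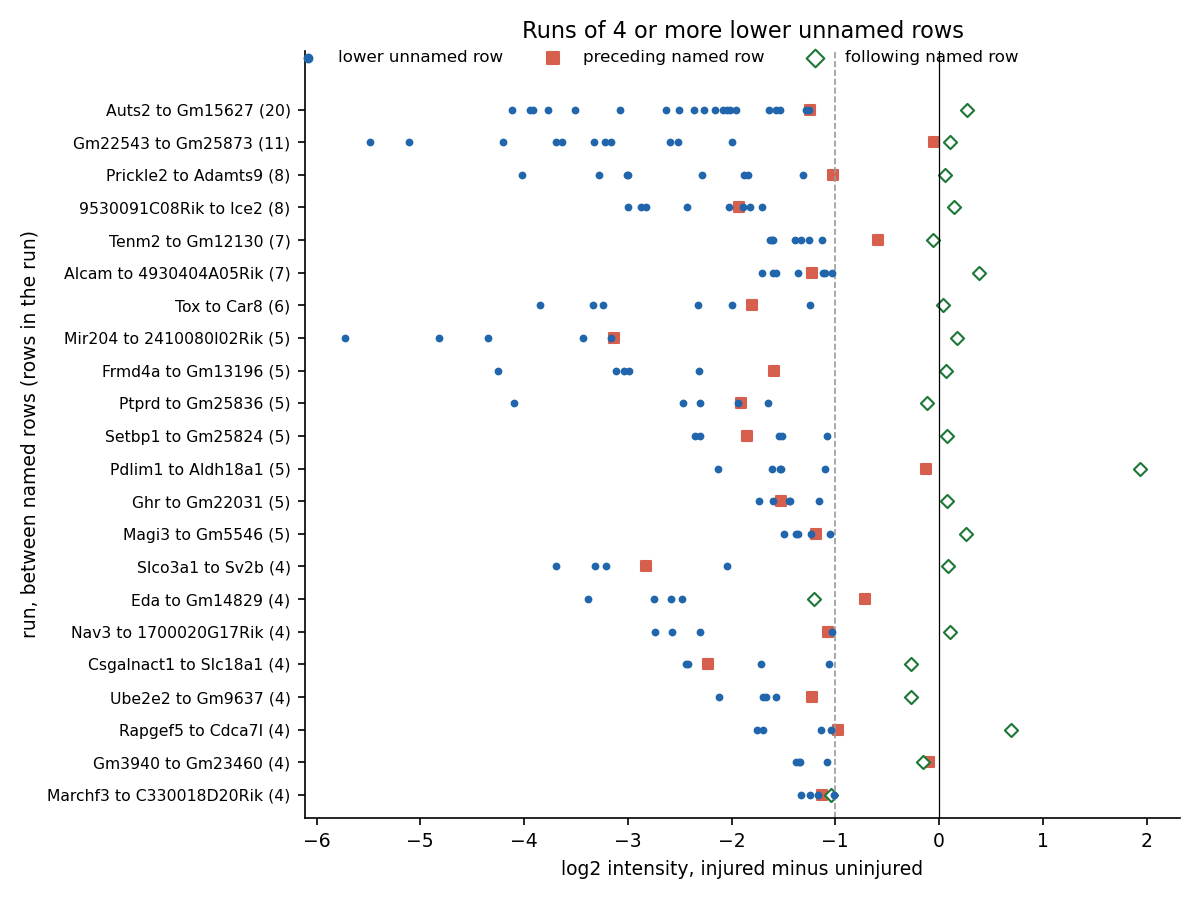
Log2 difference, injured minus uninjured (x axis), of each lower unnamed row (blue) in the runs of 4 or more rows, 1 run per line (y axis, with the flanking named rows and the number of rows in the run), with the preceding (red square) and the following (green diamond) named row; the dashed line is the 2-fold threshold. Red squares often lie among or near the blue points. Those of Auts2 at -1.24 and Mir204 at -3.14 lie just to the right of every row of their run. Most green diamonds lie near 0, and some of these are rows below the low-signal level in both arrays, such as Gm25836 and Car8.

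Some of the lower rows were beside genes of the corneal epithelium and its clock. In a list of 30 genes of corneal epithelial identity, 26 were measured and 18 were lower, and 4 of them were the nearest named row of 7 lower unnamed rows. Pax6, at 10.63 uninjured and 9.31 injured, was directly followed by TC0200001584, at 10.07 and 8.38, and by TC0200001585, at 7.08 and 5.50. Ces1d, a carboxylesterase (9.09 and 5.08), was next to TC0800002703 at 8.14 and 4.64. Aldh1a1, an aldehyde dehydrogenase (10.54 and 7.24), was next to a row at 6.64 and 5.20. The remaining 4 of the 7 were the rows TC1900000365, TC1900000367, TC1900000368 and TC1900000369, whose nearest named row was Mir204. Of 19 measured clock genes 7 were lower, and 2 had lower unnamed rows nearest to them: Rora, as above, and the output factor Hlf. Hlf was at 9.95 and 8.53, and stood between TC1100003528 (7.81 and 6.67) and TC1100003530 (7.37 and 5.57).

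In the other lists the counts were small. The cytochrome Cyp2f2 (10.65 and 6.76) was next to TC0700000448 at 6.21 and 4.50, the transporter Slc16a12 (9.41 and 5.07) was next to TC1900001426 at 6.13 and 4.59, and the receptor Tgfbr3 (9.16 and 7.15) was 2 numbers from TC0500002921 at 6.71 and 5.60. Of 23 measured genes of the wound response 22 were higher and none was lower, and none was the nearest named row of a lower unnamed row. The same count was 0 for 20 measured genes of mucins, glycocalyx and junctions, of which 3 were lower. The background for these counts is small too. The measured unnamed rows with a listed gene as their nearest named row within 5 numbers were 13 for corneal identity, 15 for the clock, 4 for glycogen, Cyp4 or retinoid metabolism, 10 for channels and transporters and 27 for signalling. They were 9 for the wound response and 14 for mucins, glycocalyx and junctions, so a count of 0 in either list says little.

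Around Pax6 the lower rows went on past the gene. Immp1l, which follows the pair of rows after Pax6, was at 8.67 and 7.94 (-0.74), and Dcdc5, a doublecortin domain gene, at 7.78 and 5.24. Between Gm13992 and Mpped2 stood TC0200001593 (8.59 and 7.30), TC0200001594 (7.15 and 4.42) and TC0200001595 (7.10 and 4.22), and after Mpped2, at 8.53 and 6.89, stood TC0200001598 (7.36 and 5.12) and TC0200001599 (7.08 and 4.67). TC0200001589, in the middle of this interval, was at 13.37 and 13.34, so bright rows among the lower ones were not all lower. Elp4, an Elongator subunit whose gene neighbours Pax6, was at 8.31 and 7.98, and 5 of the 7 measured unnamed rows between it and Dnajc24 were lower, the brightest at 9.07 and 7.31.

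Some of the other rows with high uninjured values or large differences stood alone or in pairs beside named rows. TC0700000274 was at 10.73 uninjured and 6.06 injured, the fifth lowest and the fourth brightest of the set, with a difference of -4.67. It stood next to Pglyrp1, a secreted protein that binds bacterial peptidoglycan, at 11.45 and 9.86 (-1.59), and 2 numbers after Mill2 (-1.49). TC0600000327 was at 10.69 and 7.88, between Akr1b10, an aldo-keto reductase at 9.99 and 8.72, and Bpgm, an enzyme of red cell glycolysis, at 6.61 and 6.48. TC0500002682, at 10.22 and 7.44, lay between the serine proteases Tmprss11a, at 12.16 and 9.65, and Tmprss11g, at 12.36 and 12.33, and only the preceding one was lower. TC0100002692, at 8.84 and 4.60, lay after Pid1 (8.35 and 5.84) and beside Mir6353 (6.15 and 4.43), the microRNA shown above.

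At least 1 flanking named row was lower by 1 or more for 57.4% of the 639 rows, against 7.78% of all measured unnamed rows. In the other 272 of the 639 (42.6%) neither flanking named row was lower, a missing one counted as not lower, and 84 of these were in runs. Some of these flanking rows were below the low-signal level in both arrays, where a lower value is hard to see. In 143 rows both flanking named rows were present and above -0.5. These 143 had a median difference of -1.34 and an uninjured median of 7.05, and 24 of them were lower by 2 or more. The run of 11 near Zbtb20 was among them. TC1200001778, at 8.95 and 5.49, stood between Gm22296, below the low-signal level at 3.72 and 3.73, and Gm25917, at 7.89 and 8.16. TC0100000676, 2 numbers before Sgpp2, was at 8.52 and 5.57. Pdlim1, a cytoskeletal LIM protein, was at 10.55 and 10.42 and was followed by 5 lower rows with uninjured values of 6.50 to 9.34 and injured values of 4.89 to 7.20. Aldh18a1, an enzyme of proline synthesis that closes this stretch, was higher, at 7.05 and 8.99. TC0600003156, 8 numbers after the tetraspanin gene Cd9, was at 9.23 and 6.38, while Cd9 was at 11.04 and 10.76. Its nearest named row, Gm10415, was below the low-signal level at 3.69 and 3.73.

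TC0600002655, the brightest, was at 11.37 and 10.12, between Gkn3 (below the low-signal level) and Arhgap25 (-0.94). TC0800000538 was at 11.03 and 9.92, beside Cenpu, a kinetochore protein that was brighter when injured (6.73 and 7.69). TC0X00001692 was at 10.78 and 9.60, TC1000001493, 3 numbers after the Wnt inhibitor Wif1, at 10.48 and 9.03, and TC0800000636 at 10.26 and 9.16. Of the nearest named rows of these 5, none was lower by 1 or more, and those of TC0600002655, TC0X00001692 and TC0800000636 were below the low-signal level. None of the 5 had a difference below -1.44. TC0900002715 and TC0900002716, beside the small nuclear RNA gene Rn7sk (13.78 and 13.75), had the same values, 10.54 and 9.38.

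Such repeats limit how many of the rows are separate measurements. In all 30 of the 639 rows, in 6 sets, shared both values to the last digit with other rows, so that the 639 rows hold 615 different pairs of values. The largest set had 12 rows at 6.11 uninjured and 5.09 injured under the codes of chromosomes 1 and 5 and of unplaced scaffolds of chromosome 1, and another had 8 rows at 5.53 and 4.09. A set of 4 at 6.64 and 4.85 lay between Il22 and Ifng on code 10, where many of the 76 unnamed rows repeat each other's values. Il22 itself (5.16 and 5.20) and Ifng (4.39 and 4.43) were below the low-signal level.

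By chromosome code, the share of measured unnamed rows that were lower ran from 2.57% on code 12 to 6.91% on code 19 among the numbered codes. On the codes of the mitochondrial genome and of the Y chromosome none of 19 and none of 18 measured unnamed rows was lower. With so few rows, exact binomial 95% limits allow shares of up to 17.6% and 18.5% there, counting error only.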

How the data were processed

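RNA of the corneal epithelium was measured on 1 injured and 1 uninjured array. The authors deposited log2 intensities, and the submitters' processing notes name Agilent Feature Extraction 9.1, whereas the labels give a biotin label; the sources used here do not give background correction, normalization or genome build. Column medians lay 0.0135 apart, so values were used as deposited. Rows were named from the platform annotation, updated through RefSeq (GRCm38.p6): 31254 rows carried 1 gene and 1492 several. Rows were ordered by number within each chromosome code, and a tie between 2 nearest named rows went to the lower number. Python 3.11.15 with pandas 2.3.3 and numpy 2.4.6 was used. The selection was run on simulated data with 200 planted rows, of which 100% were recovered. All planted changes were well past the fold threshold, on rows clear of the low-signal level, with noise below the SD of 0.244. The simulation therefore checks the code and does not cover rows near the thresholds.

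With 1 array a group no test was possible, and the number of arrays limits the precision. The rows named were the 20 lowest, the 10 brightest, the 5 longest runs, those at the thresholds and up to 4 per gene list, with their nearest named rows. Other rows, genes and stretches were chosen after their values were seen. The members and lists were chosen with earlier results of these data known. The alternatives were 4 scalings, 3 filters, an added constant, 2 fold thresholds, other rules for neighbours and runs, and single counting of repeated values.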

Additional observations from a re-analysis of the deposited data

How the results depend on the processing

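No paired analysis was possible because there is 1 array in each group. Under quantile normalization, equal medians, equal 75th percentiles and loess, the count of lower unnamed rows was 645 to 687 and the share with a lower preceding named row 50.4% to 52.3%; loess gave 67.2% for lower rows among those past the threshold, against 64.2%. With the brighter value at or above the 75th percentile, 353 rows, 6.87% of those measured, were lower and 145 were in runs. With no low-signal filter the share lower was 2.08%. With both values at or above the median, 304 rows (2.58%) were lower, 101 of them in runs, 37.2% had a lower nearest and 47.4% a lower preceding named row, and lower rows were 57.8% of those past the threshold. Adding 11.8 to each linear value before the logarithm gave a share lower of 3.49%. At 1.5-fold, 1492 rows (10.6%) were lower and 675 were in runs. At 4-fold, 153 rows (1.09%) were lower, 78 were in runs, 21.6% had a nearest and 23.5% a preceding named row that was also 4-fold lower, and lower rows were 71.8% of those past the threshold. The share with a lower nearest named row was 35.5% with ties given to the higher number and 46.1% with measured named rows only. Under the 4 scalings none of the 87 rows named by rule moved by more than 0.06. Their direction could not reverse with the constant, which keeps the order of the 2 values. With the constant 79 were still 2-fold lower, but 61 moved by at least the SD of 0.244. The median ratio of their difference with the constant to that without it was 0.84 over the 87 rows. No scanner file was used, so detection and saturation are unknown, and below the low-signal level the size of a difference is uncertain.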
